A study of Homo sapiens with 6 samples.

Results

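VEGFA, PDGFA and PDGFB encode secreted growth factors of one structural family, and their transcripts were followed in Hep3B cells, an established human hepatocellular carcinoma line, after 24 hours at 1% oxygen (hypoxia, n = 3) or 20% oxygen (normoxia, n = 3). The genes were taken by symbol from the deposited table, where each has 1 entry among 2681 entries with values. All 6 samples carry the genotype label WT and a treatment label of genetic modification that names no gene, and the extraction text speaks of subclones without naming any. Medium, serum and incubator conditions were shared, so that oxygen is the one labelled difference. Whether the replicates came from different cultures is not stated; the p-values then describe sample-to-sample spread alone, and part or all of it could be technical.

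VEGFA is the main ligand that drives growth and permeability of blood vessels; it binds the endothelial receptors FLT1 and KDR, with neuropilins as co-receptors, and is a textbook target of the hypoxia-inducible factors. PDGFA and PDGFB encode the A and B chains of platelet-derived growth factor, which pair through disulfide bonds as AA, BB or AB dimers. The A chain acts on the alpha receptor PDGFRA, while the B chain acts on both PDGFRA and PDGFRB and draws pericytes to new vessels; in liver it is a known mitogen of stellate cells. Transcript levels as measured here do not show which dimers were made.

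At 1% oxygen all 3 transcripts were higher, and PDGFB by far the most: the fitted fold change in normalised counts was 143-fold for PDGFB, 13.9-fold for PDGFA and 12.5-fold for VEGFA. The order of the PDGF chains also turned over. PDGFB exceeded PDGFA in each hypoxia library, and PDGFA exceeded PDGFB in each normoxia library, on the length-corrected FPKM scale (fragments scaled to transcript length and library size). VEGFA had the highest FPKM of the 3 in every library.

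PDGFA lies on the minus strand of chromosome 7, from 497258 to 520296 in GENCODE 29 (GRCh38). PDGFB lies on the minus strand of chromosome 22, from 39223359 to 39244751. VEGFA lies on the plus strand of chromosome 6, from 43770184 to 43786487. GENCODE 29 gives 6 transcripts for PDGFA, 4 for PDGFB and 32 for VEGFA. The exons of PDGFA and PDGFB share 0 bases with exons of other annotated genes. For VEGFA, 188 of 14431 exonic bases (1.30%) are shared with AL136131.3 on the opposite strand; whether counting used strand is not given in the sources used here.

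For the regulatory sequence of the induced A chain, RefSeq promoter windows (GRCh38.p14, 250 bases before to 50 after an annotated start) were matched by symbol, and 1 of the 3 genes, PDGFA, had windows. They are shown because the core bases of the element bound by hypoxia-inducible factors, ACGTG or GCGTG, were searched in them on both strands. Capitals mark each match, and a match on the other strand reads CACGT or CACGC. Of the 4 PDGFA windows 3 held a match, all of them GCGTG, and these are printed 5′ to 3′ on the gene's strand.
PDGFA start 520700, chr7:520651-520950: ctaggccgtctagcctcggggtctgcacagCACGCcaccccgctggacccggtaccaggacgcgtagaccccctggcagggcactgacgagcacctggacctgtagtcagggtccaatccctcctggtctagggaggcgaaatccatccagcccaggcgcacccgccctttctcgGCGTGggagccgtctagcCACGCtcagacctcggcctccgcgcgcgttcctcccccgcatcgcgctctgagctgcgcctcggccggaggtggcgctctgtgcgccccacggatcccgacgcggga
PDGFA start 520226, chr7:520177-520476: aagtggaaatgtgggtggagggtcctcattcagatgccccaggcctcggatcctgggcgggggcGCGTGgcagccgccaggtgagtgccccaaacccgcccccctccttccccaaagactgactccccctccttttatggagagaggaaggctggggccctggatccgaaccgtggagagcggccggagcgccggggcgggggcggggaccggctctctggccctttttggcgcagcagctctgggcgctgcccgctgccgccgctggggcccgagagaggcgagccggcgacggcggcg
PDGFA start 519846, chr7:519797-520096: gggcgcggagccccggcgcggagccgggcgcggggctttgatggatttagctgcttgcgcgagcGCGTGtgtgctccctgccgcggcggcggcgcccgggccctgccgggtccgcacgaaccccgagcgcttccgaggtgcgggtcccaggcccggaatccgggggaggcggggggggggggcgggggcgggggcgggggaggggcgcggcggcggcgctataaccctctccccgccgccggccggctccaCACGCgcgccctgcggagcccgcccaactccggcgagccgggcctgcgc

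The windows hold 3, 1 and 2 matches in the order printed, and the fourth window, chr7:518280-518579, holds 0. These stretches are rich in G and C (70.3%, 71.7% and 81.7%). The nearest transcript start in GENCODE 29 lies 404, 18 and 362 bases from the starts at 520700, 520226 and 519846, so the window with the most matches is the farthest from an annotated start in that release. Over all 35116 windows of the same length, 48.4% hold at least 1 match to either core, so a match in a PDGFA window is common among promoters. A match is a description of letters, and the counts do not show which start was used.

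The libraries differed in ways that touch the values below. The table lists selected entries alone (largest FDR 0.00999, smallest absolute log2 fold change 1.00), and over 2675 of them the hypoxia libraries held between 9904132 and 10132729 counts and the normoxia libraries between 5474340 and 6128735. These totals are not library depths. Pairs of replicates differed by a chi-square per degree of freedom of 13.1 to 268, with hypoxia replicate 2 farthest from the others in its group. Normalised counts are counts divided by a library scale that was worked out from the fold changes the authors deposited.

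VEGFA had 171.6, 102.9 and 162.6 FPKM in hypoxia replicates 1 to 3, against 10.2, 15.2 and 17.4 FPKM in normoxia replicates 1 to 3. The groups did not overlap, and hypoxia replicate 2 was the low sample of its group. Deposited counts behind these levels were 21497, 13151 and 20785 in hypoxia and 1304, 1694 and 1955 in normoxia. VEGFA averaged 19351 ± 3286 normalised counts in hypoxia and 1553 ± 281 in normoxia (SD, n = 3 each). In the edgeR quasi-likelihood fit its log2 fold change was 3.64 (SE 0.21, adjusted p = 7.44e-06). Without hypoxia replicate 2 the log2 fold change was 3.77. Leaving out the lowest hypoxia library raises the hypoxia mean by construction, so this value is no check of the rise. Without normoxia replicate 1, the lowest normoxia library, the log2 fold change was below that of the full fit.

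PDGFA had 32.8, 30.3 and 31.0 FPKM in hypoxia, against 2.62, 3.15 and 2.88 FPKM in normoxia. It was the most even of the 3 genes in FPKM: the highest hypoxia library stood 1.08 times above the lowest, and the highest normoxia library 1.20 times. Counts were 2748, 2543 and 2501 in hypoxia and 218, 217 and 194 in normoxia. Normalised counts averaged 2762 ± 253 in hypoxia and 198 ± 20.1 in normoxia (SD, n = 3 each), with no overlap. The edgeR log2 fold change was 3.80 (SE 0.16, adjusted p = 3.70e-06).

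PDGFB had 63.9, 52.7 and 60.8 FPKM in hypoxia, against 0.244, 0.529 and 0.721 FPKM in normoxia. Each normoxia library was below 1 FPKM, and the groups did not overlap. Counts in hypoxia were 8490, 6968 and 7995. The normoxia levels rest on few reads: 33, 63 and 88 counts in normoxia replicates 1 to 3 (95% exact Poisson intervals 22.7 to 46.3, 48.4 to 80.6 and 70.6 to 108). These intervals cover counting error only, and those of normoxia replicates 1 and 3 do not overlap each other. Normalised counts averaged 8272 ± 261 in hypoxia and 57.5 ± 24.4 in normoxia (SD, n = 3 each). The lowest hypoxia library was 73.2-fold above the highest normoxia library in FPKM. The edgeR log2 fold change was 7.16 (SE 0.34, adjusted p = 4.22e-06), and it lay between 6.87 and 7.47 when any 1 library was left out.

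**Figure D1:**
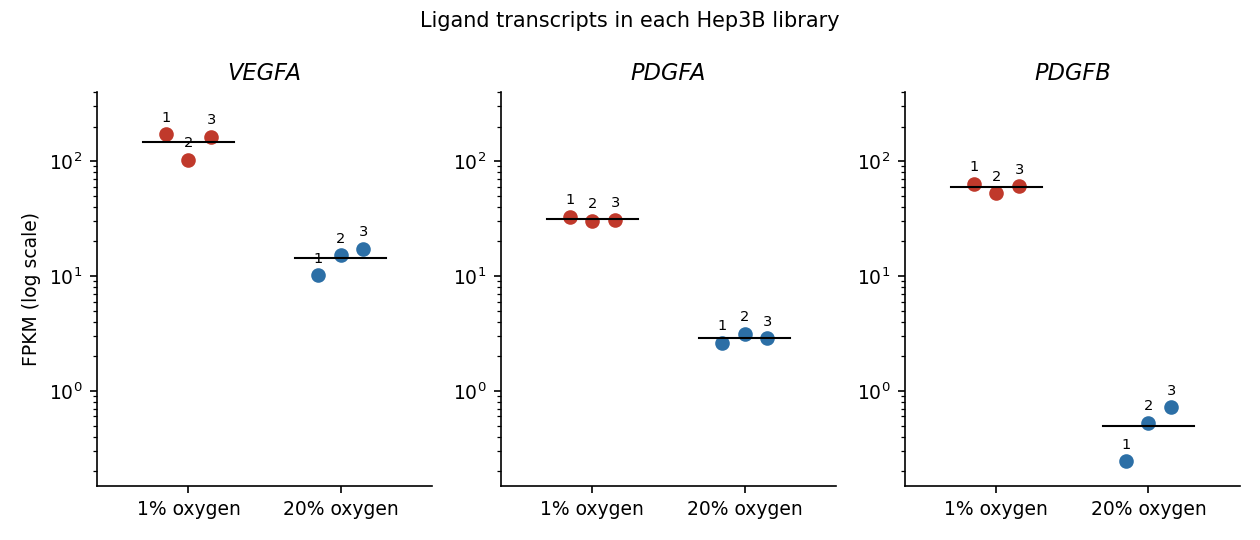
FPKM of VEGFA, PDGFA and PDGFB (log axis) in each library at 1% and 20% oxygen; numbers are replicates and bars are group means (n = 3 each). The groups do not overlap for any of the 3 genes, which come from entries already selected as changed. PDGFB lies between 52.7 and 63.9 FPKM at 1% oxygen and between 0.244 and 0.721 FPKM at 20% oxygen.

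These calls need their background. At an adjusted p of 0.05 (edgeR, Benjamini-Hochberg), 100% of the 2675 fitted entries were called, and 56.7% were called higher, and the table holds selected entries. The share higher among calls was 46.3% with DESeq2 size factors and 39.7% with listed totals as library sizes. That the 3 genes were called, higher and without overlap between the groups is therefore a description. How many of all fitted entries also lacked overlap was not counted, so whether the separation is particular to these genes is not known. By fitted log2 fold change, PDGFB ranked 13, PDGFA 114 and VEGFA 125 of 2675, and the median over all fitted entries was 1.11. The authors' deposited table gives log2 fold changes of 7.17 for PDGFB, 3.80 for PDGFA and 3.64 for VEGFA, and FDR values of 4.02e-118, 5.82e-106 and 6.15e-58. Since the library scale was recovered from the deposited fold changes, their closeness to the fitted ones is no independent check.

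The size of each rise depended on the scale. From FPKM, mean levels in hypoxia were 119-fold (PDGFB), 10.9-fold (PDGFA) and 10.2-fold (VEGFA) those in normoxia. FPKM fold changes lay a median of -0.27 on the log2 scale from those of normalised counts over 1442 entries with more than 200 counts in every library, and on that scale the 3 genes stood at 6.89, 3.44 and 3.35. With listed totals as library sizes the log2 fold changes were 6.18 for PDGFB, 2.83 for PDGFA and 2.68 for VEGFA, and with DESeq2 size factors over the listed entries 6.37, 3.03 and 2.85. Those scalings moved all fitted entries by a median of -0.96 and -0.78. All 3 genes stayed called and higher under each of these scalings.

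Replicate spread differed among the genes. In normalised counts, PDGFB had a coefficient of variation of 3.16% in hypoxia and 42.4% in normoxia, PDGFA 9.14% and 10.1%, and VEGFA 17.0% and 18.1%. Counting error alone gives 1.13% and 12.8% at the mean counts of PDGFB, 1.96% and 6.91% for PDGFA, and 0.736% and 2.46% for VEGFA, hypoxia before normoxia. The computed spread was above counting error for each of the 3 genes in both groups. For PDGFA in normoxia (10.1% against 6.91%), 3 libraries do not show that the excess is more than counting error. The median over entries with more than 200 counts in every library was 16.1% in hypoxia and 14.7% in normoxia, so VEGFA varied about as much as a typical entry. In normoxia, replicate 1 held the lowest level of both VEGFA and PDGFB; its PDGFA level was the lowest in FPKM (2.62) but not in normalised counts.

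The chain ratio was compared within each library, where library scale cancels. PDGFB was 1.95, 1.74 and 1.96 times PDGFA in hypoxia replicates 1 to 3 by FPKM, against 0.0930, 0.168 and 0.250 times in normoxia replicates 1 to 3. Every hypoxia ratio was above 1 and every normoxia ratio was below it. The mean log2 ratio was 0.91 ± 0.10 in hypoxia and -2.67 ± 0.72 in normoxia (SD, n = 3 each), a difference of 3.58 (SE 0.42), or 11.9-fold. Over the 9 pairs of a hypoxia with a normoxia library the difference ran from 2.80 to 4.40. These pairs reuse the same libraries and are not independent. The exact two-sided permutation test gave p = 0.10, the smallest it allows with 3 against 3 samples, and 0.15 after Benjamini-Hochberg adjustment over the 3 ratios computed. Adding 1 FPKM before taking logs reduced the difference to 2.28, since PDGFB lies below 1 FPKM in normoxia.

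PDGFB to VEGFA behaved likewise. PDGFB reached 0.373, 0.513 and 0.374 times VEGFA in hypoxia, against 0.0240, 0.0348 and 0.0415 times in normoxia, with no overlap. The mean log2 ratio was -1.27 ± 0.26 in hypoxia and -4.94 ± 0.40 in normoxia (SD, n = 3 each), a difference of 3.67 (SE 0.28; exact two-sided permutation p = 0.10, adjusted 0.15). With 1 FPKM added this difference was 2.08.

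VEGFA to PDGFA did not separate the groups. VEGFA was 5.23, 3.39 and 5.25 times PDGFA in hypoxia, against 3.88, 4.83 and 6.03 times in normoxia. The mean log2 ratios were 2.18 ± 0.36 in hypoxia and 2.27 ± 0.32 in normoxia (SD, n = 3 each), a difference of -0.09 (SE 0.28; exact two-sided permutation p = 0.70, also after adjustment). Between single libraries the difference ran from -0.83 to 0.44, so these 3 libraries a group do not settle its direction. Its sign turned with 1 FPKM added (0.20), without hypoxia replicate 2 (0.12) and without normoxia replicate 3 (0.07).

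**Figure D2:**
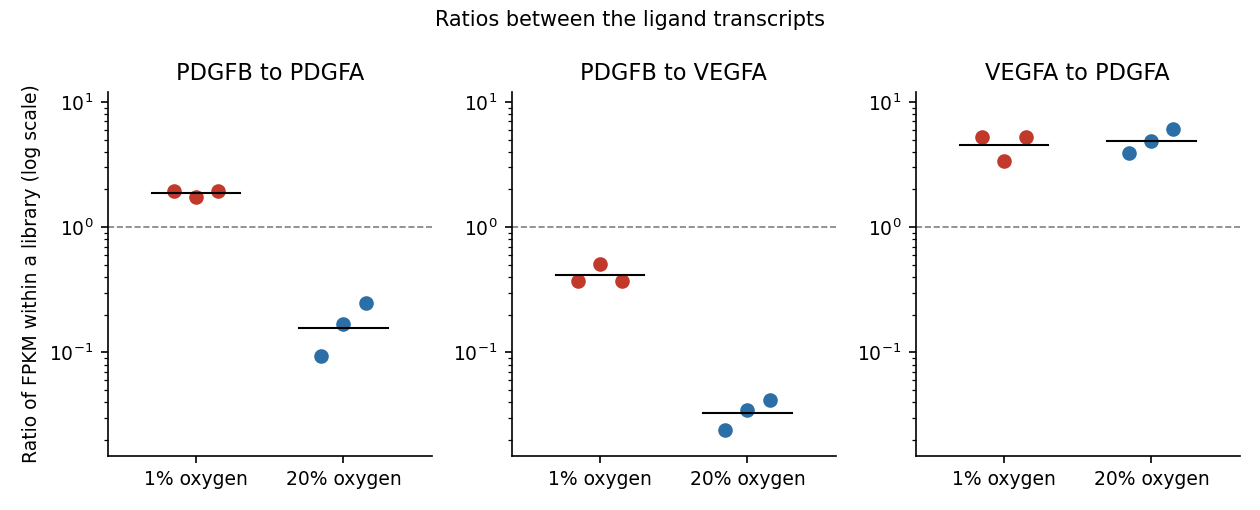
Ratios of FPKM between the ligand transcripts within each library (log axis) at 1% and 20% oxygen; bars are geometric means of 3 libraries and the dashed line marks equal levels. PDGFB to PDGFA runs from 1.74 to 1.96 at 1% oxygen and from 0.0930 to 0.250 at 20% oxygen, while VEGFA to PDGFA overlaps between the groups.

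The make-up of the 3 transcripts changed with these ratios. Their summed level was 236 ± 44.1 FPKM in hypoxia and 17.6 ± 4.12 FPKM in normoxia (SD, n = 3 each). PDGFB made up 25.4% ± 2.60 of the sum in hypoxia and 2.70% ± 0.787 in normoxia, and VEGFA 61.1% ± 4.97 in hypoxia and 80.5% ± 2.41 in normoxia. PDGFA held 13.6% ± 2.37 in hypoxia and 16.8% ± 3.20 in normoxia, and its ranges overlapped. In raw counts, the share of PDGFB among the reads of both PDGF genes was 75.5%, 73.3% and 76.2% in hypoxia, against 13.1%, 22.5% and 31.2% in normoxia. The exact (Clopper-Pearson) 95% intervals of those shares reached from 72.4% to 77.0% over the hypoxia libraries and from 9.23% to 37.0% over the normoxia libraries. They cover counting error only, and the intervals of normoxia replicates 1 and 3 do not overlap.

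**Figure D3:**
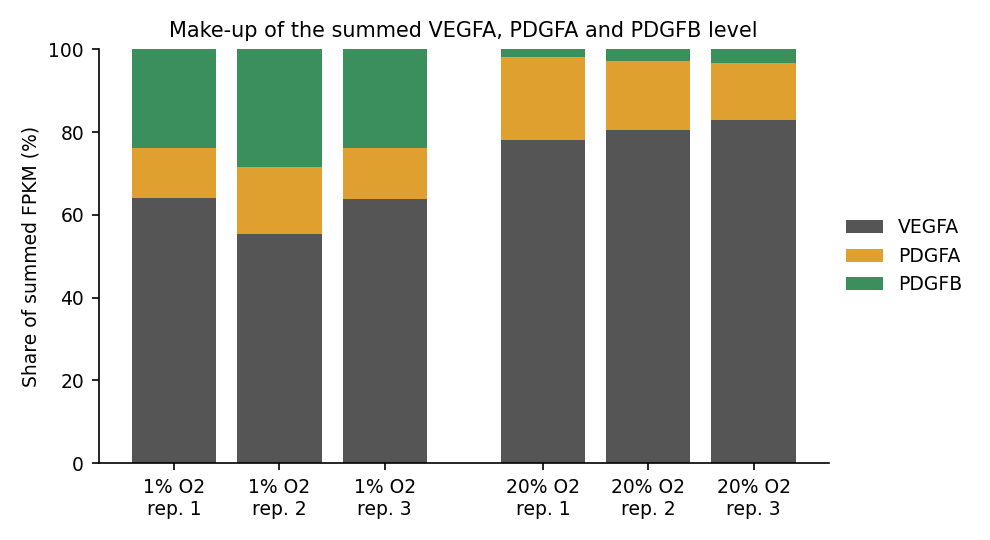
Share of VEGFA, PDGFA and PDGFB in their summed FPKM (%) in each library, with the 1% oxygen libraries on the left and the 20% oxygen libraries on the right. PDGFB takes between 23.8% and 28.4% at 1% oxygen and between 1.87% and 3.44% at 20% oxygen.

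FPKM and counts did not stand in one fixed proportion. A count of PDGFA was worth 1.57 to 1.63 times the FPKM of a count of PDGFB in hypoxia and 1.63 to 1.81 times in normoxia. For VEGFA against PDGFB the range was 1.03 to 1.06 in hypoxia and 1.06 to 1.09 in normoxia. The sources used here do not say how FPKM was computed; the cause of this variation was not tested. From counts alone, which need no length, the log2 ratio of PDGFB to PDGFA differed in the same direction, and the count ratio was 3.09, 2.74 and 3.20 in hypoxia, against 0.151, 0.290 and 0.454 in normoxia.

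Against the other entries in the table, the ligands' levels moved up. By mean FPKM among the 2675 fitted entries, PDGFB ranked 281 in hypoxia and 2373 in normoxia, PDGFA ranked 449 in hypoxia and 1656 in normoxia, and VEGFA ranked 122 in hypoxia and 751 in normoxia. All ranked entries were selected as changed, 1157 of them lower, so the shift in ranks restates the rises and is no separate result. The order within each group was free of overlap: in hypoxia the lowest VEGFA level (102.9 FPKM) was above the highest PDGFB level (63.9), and the lowest PDGFB level (52.7) was above the highest PDGFA level (32.8). In normoxia the lowest VEGFA level (10.2 FPKM) was above the highest PDGFA level (3.15), and the lowest PDGFA level (2.62) was above the highest PDGFB level (0.721).

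Profiles over the 6 libraries were compared as log2(normalised count + 1), each centred on its mean, and the 5 nearest of 2194 entries with a gene symbol and a mean of at least 100 normalised counts were taken for each ligand. Nearest to VEGFA were ZNF395, a zinc finger gene (distance 0.40), PPP1R3C, a glycogen-targeting subunit of protein phosphatase 1 (0.42), the ubiquitin ligase TRIM9 (0.43), TP53INP2, a regulator of autophagy (0.50), and the transcription factor KLF7 (0.52). Nearest to PDGFA were PFKFB4, a kinase that raises fructose 2,6-bisphosphate (0.23), CCDC183 (0.30), the glutamate transporter SLC1A7 (0.43), TMEM158 (0.48) and ALS2CL (0.51). ZNF395 shares 34.9% of its exonic bases with FBXO16, and CCDC183 shares 73.9% of its own with other genes.

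PDGFB had no close neighbour. Its nearest profiles were the mitochondrial adenylate kinase AK4 (1.28), the apolipoprotein APOA4 (1.34), the lipase inhibitor ANGPTL4 (1.44), C6orf223 (1.71) and NDUFA4L2, a mitochondrial protein of the hypoxia response (1.78). Their fitted log2 fold changes were 6.65, 6.36, 6.58, 6.65 and 6.50, below the 7.16 of PDGFB. AK4 averaged 3.09 normalised counts in normoxia, and its log2 fold change was 7.31 without normoxia replicate 3. APOA4 shares 43.1% of its exonic bases with AP006216.3 on the opposite strand. PDGFA and VEGFA stood 0.77 apart, while PDGFB stood 4.37 from PDGFA and 4.46 from VEGFA. All these distances share the same 6 libraries. Profiles were centred but not scaled, so a distance grows with any difference in fold change and with spread at low counts. The distances of PDGFB are therefore no result separate from its larger fold change.

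**Figure D4:**
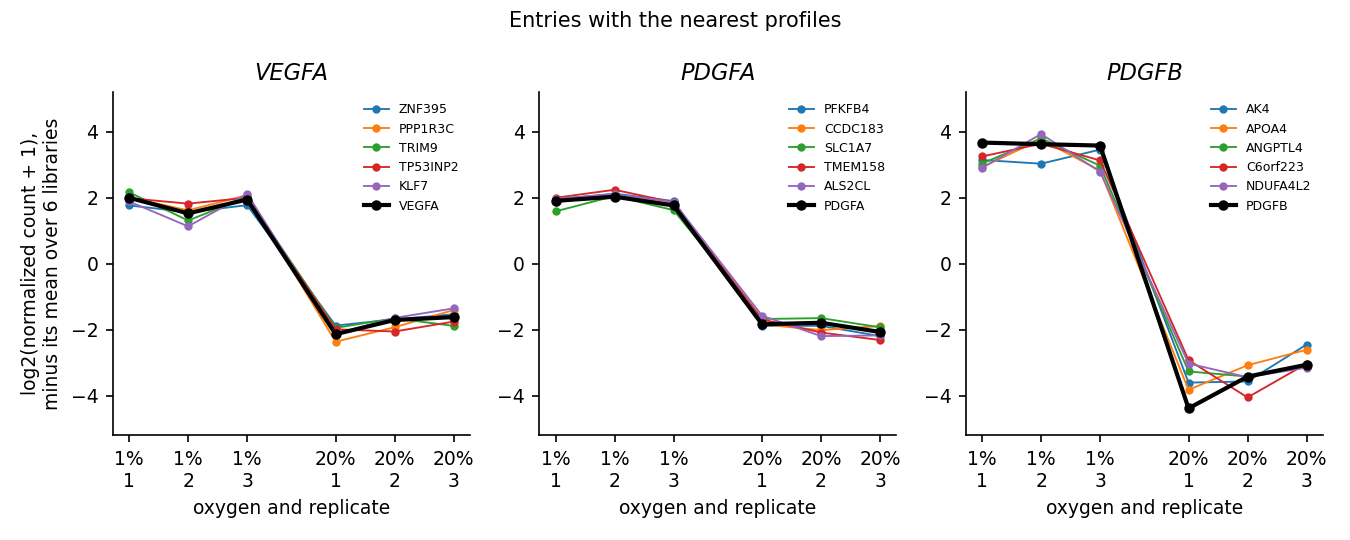
Profiles of each ligand (black) and of the 5 nearest entries (colours) over the 6 libraries: log2(normalised count + 1) minus its mean, with the 1% oxygen libraries on the left and the 20% oxygen libraries on the right. The neighbours of PDGFA lie within 0.51 of it, while those of PDGFB start at a distance of 1.28.

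Other genes of the pathway were taken from 6 lists of 121 genes, of which 28 had an entry. Of their 29 entries, 23 were higher and 6 lower by the edgeR test (adjusted p under 0.05), or 79.3% higher, against 56.7% higher and 100% called over all fitted entries. The median log2 fold change was 2.0, against 1.11 over all fitted entries. The table holds entries already selected as changed, so these counts are a description. A gene without an entry may have been unchanged, changed too little or too variably, or not expressed. Of the 9 VEGF and PDGF ligands, the 3 described here had an entry, and VEGFB, VEGFC, VEGFD, PGF, PDGFC and PDGFD had none. Of 8 receptors and co-receptors 1 had an entry: NRP2, a co-receptor for VEGF ligands, rose by a log2 fold change of 1.04 (SE 0.17; 11.1 ± 2.23 FPKM in hypoxia and 6.36 ± 1.26 in normoxia, SD, n = 3 each). NRP2 lost its call with DESeq2 size factors and with listed totals (adjusted p = 0.738 with totals). The ligands' main receptors FLT1, KDR, PDGFRA and PDGFRB had no entry.

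Of 20 genes that process, bind or release such ligands 6 had an entry, 5 higher and 1 lower (median log2 fold change 1.20). PLAT, the tissue plasminogen activator, rose most, by a log2 fold change of 3.29 (SE 0.16), to 32.0 ± 5.87 FPKM in hypoxia, against 3.81 ± 0.657 in normoxia (SD, n = 3 each). The heparan sulfate carriers SDC4 and HSPG2, which can hold heparin-binding growth factors, rose by 1.14 and 1.05 (HSPG2, the sixth by size, was added after its value was seen), and the proprotein convertase PCSK6 by 1.25. The membrane protease ST14 rose by 2.01, or by 2.88 without normoxia replicate 2. ADAMTS1, a metalloprotease known to bind VEGFA, fell by 2.38 on the log2 scale, and by 3.08 without hypoxia replicate 3. With listed totals as library sizes, ST14, PCSK6, SDC4 and HSPG2 lost their calls and none of the 6 changed sign.

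Of 20 receptor adaptors and feedback regulators 2 had an entry. DUSP6, a phosphatase that shuts off ERK, rose 4.01-fold, to 50.8 ± 13.2 FPKM in hypoxia, against 15.3 ± 4.21 in normoxia (SD, n = 3 each). PTPRB, the endothelial receptor phosphatase, rose by 2.22. DUSP6 shares 40.5% of its exonic bases with AC024909.2 on the opposite strand.

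Other angiogenic secreted factors had 15 entries for 14 of 33 genes, 11 higher and 4 lower (median log2 fold change 2.25). ANGPTL4 rose by a log2 fold change of 6.58, to 532 ± 124 FPKM in hypoxia, against 6.79 ± 1.03 in normoxia (SD, n = 3 each). The peptide ligand gene APLN rose by 4.69 and the ephrin gene EFNA1 by 3.68. IGF2 had entries under 2 Ensembl IDs (log2 fold changes 6.6 and 4.23). They share 90.0% and 75.0% of their exonic bases with other annotated genes, each other included. Reads in the shared bases cannot be assigned to 1 gene by position alone. The log2 fold change of the first entry was 10.37 without normoxia replicate 2, which held all 5 of its normoxia counts. The 4 genes that fell are named after their values were seen: the log2 fold change was -2.24 for FGF2, -2.35 for ANGPT1, -2.43 for CXCL8 and -2.56 for CCN2, listed as CTGF. CXCL8 stood at -3.32 without hypoxia replicate 3. Each of these 4 averaged under 1 FPKM in hypoxia, among them FGF2 at 0.334 ± 0.134 FPKM in hypoxia and 1.56 ± 0.359 in normoxia (SD, n = 3 each). In the same list ANG, named after its values were seen, lost its call with TMM, with DESeq2 size factors and with listed totals.

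Of 15 angiogenesis inhibitors 2 had an entry, the semaphorin SEMA3B (log2 fold change 2.86) and the metalloprotease inhibitor TIMP3 (1.30), both higher. Of 25 regulators of the VEGFA gene or its mRNA 3 had an entry. CITED2, a competitor of hypoxia-inducible factors for their coactivators, rose by 3.14, ZFP36, which destabilises AU-rich messages, rose by 2.80, and the transcription factor EGR1 fell by 1.5 on the log2 scale. HIF1A, EPAS1, ARNT and VHL had no entry.

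**Figure D5:**
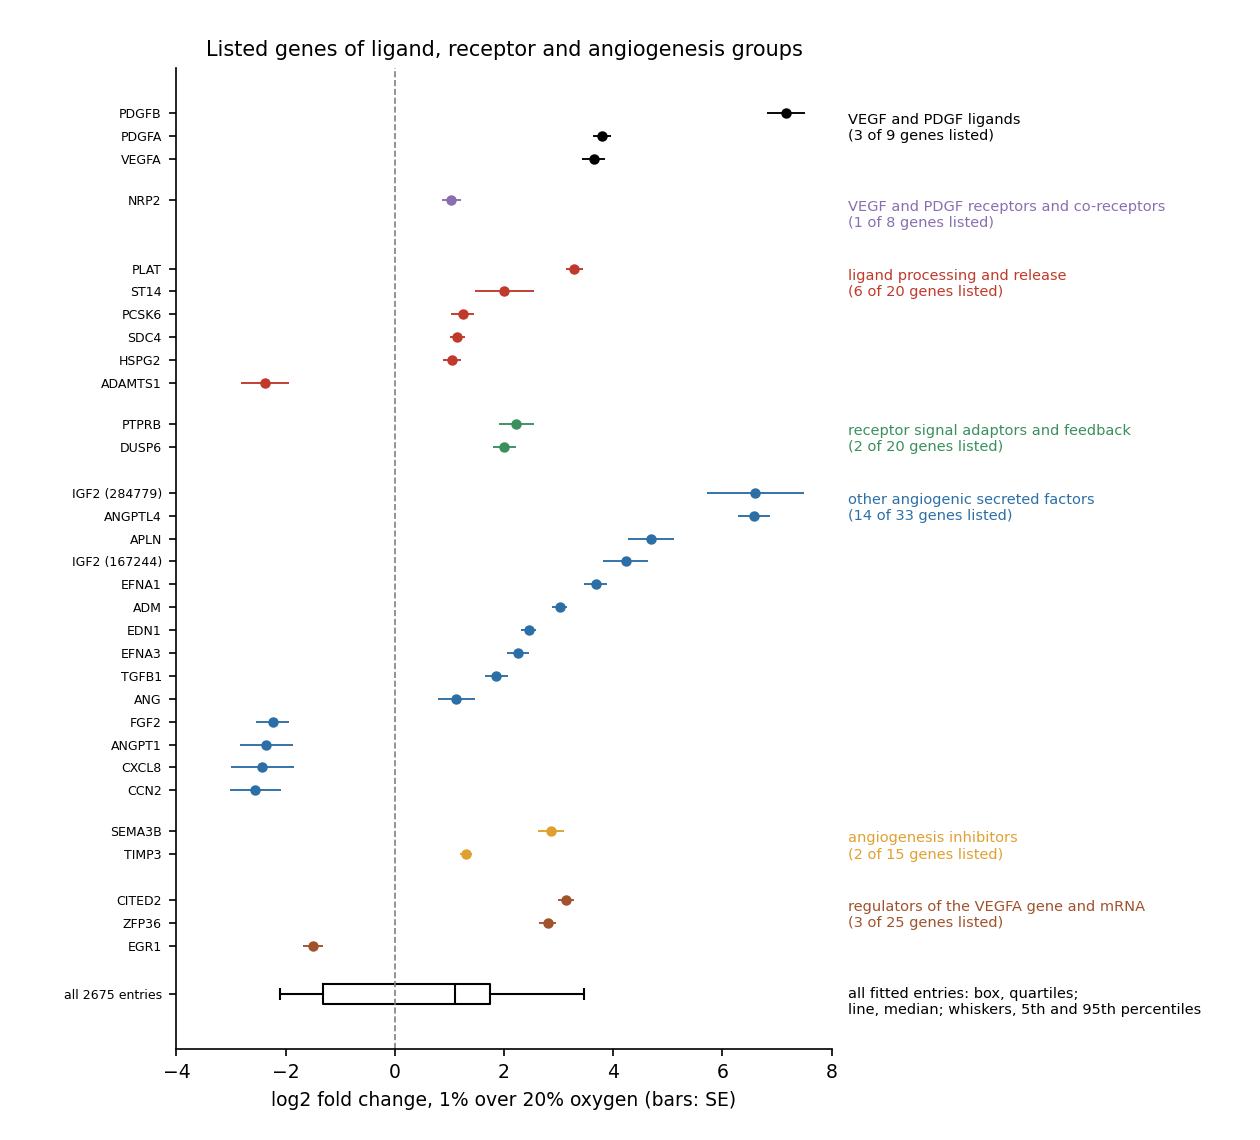
Fitted log2 fold change (1% over 20% oxygen, bars are SE) of listed genes in 7 groups (1 of the secreted factors is not drawn), with the distribution of all 2675 fitted entries at the bottom. PDGFB at 7.16 is the highest point, 4 secreted factors lie below 0, and the upper IGF2 point rests on 5 normoxia counts, all in replicate 2.

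The annotation in the deposited table assigns 21 KEGG pathways to VEGFA, 19 to PDGFA and 20 to PDGFB; 18 are common to the PDGF genes and 9 to all 3. Against 56.7% of all fitted entries, the share of higher entries in these 9 ran from 60.0% in EGFR tyrosine kinase inhibitor resistance (9 of 15 entries) to 90.7% in focal adhesion (39 of 43). Pathways in cancer, with the most entries, had 53 of 82 higher (64.6%), Rap1 signaling 17 of 26 (65.4%) and PI3K-Akt signaling 46 of 65 (70.8%). MicroRNAs in cancer had 30 of 42 higher (71.4%), MAPK signaling 43 of 55 (78.2%), fluid shear stress and atherosclerosis 24 of 29 (82.8%) and Ras signaling 27 of 32 (84.4%). The 3 ligands are among the higher entries counted in each, which raises every share. In EGFR tyrosine kinase inhibitor resistance they are 3 of the 9 higher entries, and without them its share is below 56.7%.

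Markers of cells that use or carry these ligands were looked up. Only entries selected as changed are listed, so a marker with a steady level has no entry. The levels below therefore do not show the cell type, and sums of different marker sets cannot be compared with each other. Of 9 hepatocyte markers 3 had an entry, ALB, AFP and APOB, with a summed level of 2.46 to 2.84 FPKM in hypoxia and 8.81 to 10.3 FPKM in normoxia. Of 7 endothelial markers EGFL7 and CDH5 had an entry, together 28.9 to 63.5 FPKM in hypoxia and 2.55 to 7.33 FPKM in normoxia. Of 5 platelet and megakaryocyte markers, 1, ITGA2B, had an entry, with 2.77 to 3.55 FPKM in hypoxia and 0.0547, 0 and 0 FPKM in normoxia replicates 1 to 3. Of 5 macrophage markers 1, CD68, had an entry, at 114 to 127 FPKM in hypoxia and 36.0 to 38.8 FPKM in normoxia, and it shares 85.8% of its exonic bases with other genes. Of 7 pericyte and fibroblast markers 0 had an entry. Every sample was of the Hep3B line, so these entries are not read as signs of other cell types. The part of these markers in the rise of the ligands was not tested. Bulk RNA does not show whether a level changed in every cell or in some of them.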

How the data were processed

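RNA of 6 Hep3B samples was sequenced from SMARTER mRNA-seq libraries, per the labels' protocols. The sources used here name no aligner, counting tool, annotation, genome build or strand setting. The authors deposited whole-number read counts and FPKM values per entry, per the file headers, with an FDR (adjusted p-value) and a log2 fold change of their own comparison, which is positive for entries higher at 1% oxygen. The other 2 lines of the table hold text spill-over and no values. Sample columns were matched by oxygen level and number.

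Members and lists were chosen with earlier results of these data known. Library scales were fitted to the authors' deposited log2 values over the 1442 entries whose counts exceeded 200 in all libraries (median absolute residual 0.000202 on the log2 scale). They were 0.994, 0.844 and 0.997 in hypoxia and 1.06, 1.02 and 1.11 in normoxia, so the count-based fold changes are no check of the authors' scale. Left out were 6 entries whose deposited log2 fold change missed their own counts by over 1. The other 2675 were fitted with edgeR 4.0.16 (quasi-likelihood test, Benjamini-Hochberg adjustment, threshold 0.05). SE was derived from the fold change and the F statistic. The fit was also run on simulated data with known scales, in which only a part of the entries changed. Here every entry was selected as changed, so that run is no check of the fit under these conditions. limma 3.58.1 and DESeq2 1.42.0 served for alternatives. Ratios were tested by exact permutation (scipy 1.17.1). Named were the 3 ligands, the 5 nearest profiles to each and up to 5 entries of each list by absolute log2 fold change, with exceptions stated; 1 listed gene is counted but not reported here by name. The scale of the fold changes is limited by what the table holds: genes that changed little are not analysed here.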

Additional observations from a re-analysis of the deposited data

How the results depend on the processing

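The fold changes of VEGFA, PDGFA and PDGFB kept their direction and their call under all 14 alternatives tried, which were other scalings, DESeq2, a count filter, limma on FPKM, the replicate block and leaving out each library. They ranged from 2.68 to 3.77 for VEGFA, from 2.83 to 3.87 for PDGFA and from 5.34 to 7.47 for PDGFB on the log2 scale. The count filter left all 2675 entries in place, so its values repeat the reported fit and are no check. DESeq2, the replicate block and the fits without one library reused the library scale recovered from the authors' fold changes. The lowest PDGFB value came from log2(FPKM + 1). Under that fit the numbers of higher and lower calls were 1448 and 1154, against 1518 and 1157 in the reported fit, and they were 763 and 1157 with listed totals and 997 and 1157 with DESeq2 size factors. Without one library, PDGFB to PDGFA ranged from 3.20 to 3.91 and PDGFB to VEGFA from 3.45 to 3.85. The VEGFA to PDGFA difference (-0.09) turned to 0.20 with 1 FPKM added, 0.12 without hypoxia replicate 2 and 0.07 without normoxia replicate 3, in a range of -0.25 to 0.12 without one library; the cause was not tested. Deviations of same-numbered samples from their group means correlated at r = -0.35, -0.12 and 0.43, and those of differently numbered samples at -0.52 to 0.57. With 3 libraries a group these values constrain one another, so they do not settle whether the numbers pair the samples. With the replicate block the log2 fold changes were 3.64, 3.80 and 7.23 for VEGFA, PDGFA and PDGFB with 2675 entries called, and the ratio differences were unchanged by construction (exact sign-flip p = 0.25, the smallest 3 pairs allow, for both PDGFB ratios). Among the 3 ligands, counts were lowest for PDGFB in normoxia, at 33 to 88 per library; several other named genes had fewer.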
